A study of Mus musculus with 59 samples.

Results

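*Myc*, *Mycn*, *Ccnd1*, *Ccnd2*, *Ccnd3*, *Ccne1* and *Ccne2* were followed by gene symbol through RNA-seq data of conditional mouse ESC lines. These are 7 genes of the 24391 in the deposited files, which hold TPM (a level per length of transcript, scaled to a fixed sum per library). All 7 genes had a TPM above 0 in each of the 6 lines. ESCs were kept with LIF and 3i (SU5402, PD184352 and CHIR99021, inhibitors of FGFR, MEK1/2 and GSK3β) on MEF feeders, and EBs are the aggregates formed when LIF and 3i were withdrawn for 2 days in suspension. The *Pcgf1* line (ERT2-Cre; *Pcgf1* f/f) has 4 control ESC, 5 mutant ESC, 5 control EB and 5 mutant EB libraries. The Ring1 point mutant line (ERT2-Cre; *Ring1A*-pm; *Ring1B*-cpm) has 2 libraries in each of these groups, and its controls already carry the *Ring1A* point mutation. The other 4 lines, described last, have 8 libraries each, 2 per labelled group. The *Pcgf2/4*, *Pcgf3/5* and *Pcgf6* lines carry floxed alleles of the genes they are named for. The *Ring1A/B* line has a floxed *Ring1B* and lacks *Ring1A* in every library, controls included. Every line carries the tamoxifen-activated Cre. Mutants were given 4-OHT, which deletes the floxed gene or turns on the *Ring1B* point mutation, and controls were not, so that 4-OHT itself and the mutation cannot be told apart. How many clones each line stands for, and whether replicates are separate cultures, is not given in the sources used here, so the *p* values measure only the spread between these libraries.

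MYC and MYCN are transcription factors that bind E-boxes with MAX and drive ribosome production, growth and entry into the cell cycle. D cyclins (*Ccnd1*, *Ccnd2*, *Ccnd3*) activate CDK4 and CDK6 early in G1, in answer to growth signals, and E cyclins (*Ccne1*, *Ccne2*) activate CDK2 at the passage into S phase. ESCs are known for a short G1 phase, for high cyclin E and for weak control of S phase entry by the RB proteins.

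In the *Pcgf1* line the labels were checked on the deleted gene first. *Pcgf1* ranged from 10.7 to 13.6 TPM in ESC controls and from 7.30 to 16.6 TPM in EB controls. In mutants it was at 0.627 to 2.77 TPM (ESCs) and 0.978 to 2.47 TPM (EBs), below every control library. Point mutations leave the transcripts in place, so no such check exists in the Ring1 point mutant line. Read depth is unknown, and a library of the *Pcgf1* line had 6241 to 9139 genes without any TPM. Its libraries carry identifiers of 3 library series (replicate 1, replicates 2 and 3, and replicates 4 and 5). Same-numbered libraries deviated together, so tests with the replicate number as a block are given wherever they change a call of the 7 genes. For the gene lists, the counts with the block are given where they differ between the control stages. The 14 feeder fibroblast markers, of which 12 had a mean of at least 1 TPM in ESCs, gave a sum of 266 to 320 TPM in ESC controls, 225 to 271 TPM in ESC mutants, 39.0 to 78.3 TPM in EB controls and 27.3 to 48.4 TPM in EB mutants. Their sum thus moves with the stage. Between control EBs and control ESCs 9 of the 14 feeder fibroblast markers were lower, 2 were higher and 3 were not called (median log2 fold change -2.32). *Col1a1*, the main fibroblast collagen, was at 168 ± 42.1 TPM in control ESCs (SD, n = 4) and 5.43 ± 2.32 TPM in control EBs (SD, n = 5). *Dcn*, which encodes decorin, went the other way, from 0.134 ± 0.268 to 4.31 ± 2.80 TPM in the same groups (adjusted *p* = 0.00135 by limma). One marker was at 0 in every mutant EB library. The part of the feeders in the stage differences below was not tested. Less RNA per cell and fewer cells of a kind cannot be told apart in these bulk samples.

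Upon ESC-to-EB differentiation of the *Pcgf1* control cells, *Myc*, *Ccne1* and *Ccnd2* rose, *Ccnd3* fell, and *Mycn*, *Ccnd1* and *Ccne2* did not pass the test. By limma, with Benjamini-Hochberg adjustment over all 20594 genes tested, 4 of the 7 genes were called at an adjusted *p* below 0.05, 3 higher and 1 lower. For comparison, 24.9% of all genes tested were called, 11.5% higher and 13.4% lower. With the replicate block 6 of the 7 were called, beside 43.9% of all genes. The TPM ranges of control ESCs and EBs did not overlap for 4 of the 7 genes, beside 21.7% of all genes. In mutant cells 3 were called between the stages (18.3% of all genes) and 6 with the block (36.8%). The ranges of mutant ESCs and EBs did not overlap for 2 of the 7, beside 15.2% of all genes.

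**Figure D1:**
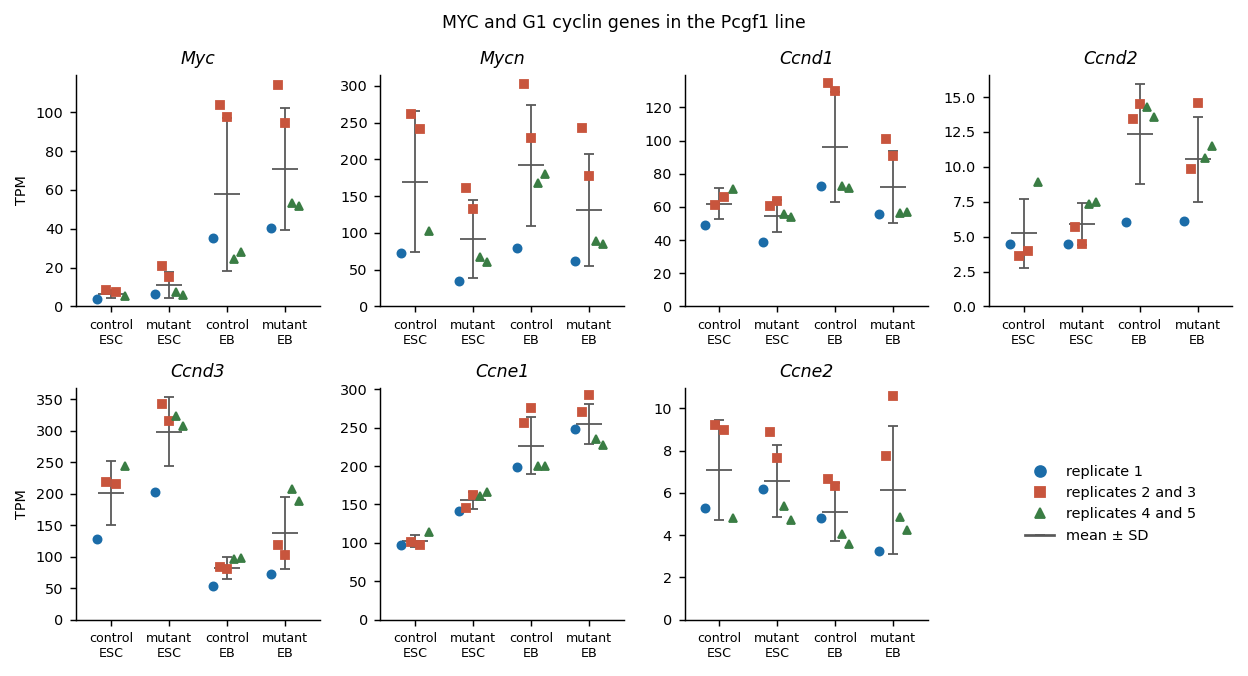
TPM of the 7 genes in each of the 19 libraries of the *Pcgf1* line, by group (horizontal axis), with symbols for the library series and grey bars for the mean ± SD. *Myc* and *Ccne1* are higher in all 10 EB libraries than in the 9 ESC libraries, and *Mycn* differs more between library series than between groups.

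*Myc* (chr15:61816946-61821929 of mm9, plus strand) showed the widest change. It was at 3.82, 8.49, 7.34 and 5.41 TPM in the control ESC replicates 1 to 4. In control EBs it was at 35.0, 104, 97.8, 24.6 and 28 TPM (replicates 1 to 5). The groups did not overlap, and the highest values of both stages came from replicates 2 and 3. The mean rose from 6.27 ± 2.07 TPM (SD, n = 4) to 57.8 ± 39.4 TPM (SD, n = 5), a log2 fold change of 2.97 (SE 0.48, adjusted *p* = 0.000165 by limma). Within the 3 library series the difference was 3.16, 3.66 and 2.26 on the log2 scale, higher in EBs in every series. In mutants *Myc* was at 6.28, 20.6, 15.3, 7.25 and 6 TPM in ESCs and at 40.6, 114, 94.3, 53.2 and 52.0 TPM in EBs. These groups did not overlap either, with a log2 fold change of 2.74 (SE 0.45, adjusted *p* = 0.000267). The order of the group means was control ESCs, mutant ESCs, control EBs, mutant EBs, and both neighbours of the same stage overlapped.

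*Mycn* (chr12:12942902-12948720, minus strand), the member most used in the early embryo, was the more abundant MYC gene in every library of the *Pcgf1* line. Control ESCs had 73.1, 262, 241 and 102 TPM, and control EBs had 79.6, 302, 229, 168 and 180 TPM. The values of replicates 2 and 3 stood above the rest at both stages, and the groups overlapped widely (log2 fold change 0.25, SE 0.51, adjusted *p* = 0.783). Comparing same-numbered libraries, 3 of 4 pairs were higher in EBs, and with the replicate block the log2 fold change of 0.32 was called (adjusted *p* = 0.0494). That call was lost without control ESC replicate 1, 2 or 4 or control EB replicate 1, 4 or 5 (adjusted *p* up to 0.172). Mutant ESCs had 35.1, 161, 132, 66.7 and 60.2 TPM and mutant EBs 61.8, 243, 177, 89.5 and 84.8 TPM. All 5 same-numbered mutant pairs were higher in EBs, by 0.42 to 0.81 on the log2 scale (log2 fold change 0.55, adjusted *p* = 0.513, blocked 0.00155).

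The makeup of the MYC genes in the *Pcgf1* line therefore differed between groups in a ratio that is taken within each library. *Mycn* was 18.9 to 32.9 times as abundant as *Myc* in control ESCs, 5.59 to 10 times in mutant ESCs, 2.28 to 6.82 times in control EBs and 1.52 to 2.14 times in mutant EBs. Neither the control and mutant ESC values nor the control and mutant EB values overlapped. In the Ring1 point mutant line the ratio went the other way between control stages, with 1.34 to 3.14 in ESCs and 3.64 to 6.31 in EBs. Its mutants, at 1.17 to 3.80 in ESCs and 1.69 to 4.28 in EBs, overlapped the controls of the same stage. The ratio is a description of 2 of the chosen genes and carries no test.

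The promoter of *Mycn* is shown because it is the MYC gene with the lower level in mutants of both lines below. The RefSeq table used here (GRCm38.p6) held entries for *Mycn*, *Ccne1* and *Ccnd3*, and none was found for *Myc*, *Ccnd1*, *Ccnd2* and *Ccne2*. The 250 bases before the start were searched on both strands for the E-box of MYC (CACGTG), for E2F words (TTTCCCGC, TTTCGCGC, TTTGCCGC and TTTGGCGC), for TCF words of the WNT pathway (CTTTGAT and CTTTGAA) and for the STAT word (TTCNNNGAA). Of 32851 such windows, 6.02% hold the E-box, 1.86% an E2F word, 7.48% a TCF word and 7.02% the STAT word. The *Mycn* window, chr12:12941837-12942086 (minus strand) of GRCm38.p6, had 3 E2F matches, of which the first 2 overlap, and 1 TCF match, here in capitals.
Mycn: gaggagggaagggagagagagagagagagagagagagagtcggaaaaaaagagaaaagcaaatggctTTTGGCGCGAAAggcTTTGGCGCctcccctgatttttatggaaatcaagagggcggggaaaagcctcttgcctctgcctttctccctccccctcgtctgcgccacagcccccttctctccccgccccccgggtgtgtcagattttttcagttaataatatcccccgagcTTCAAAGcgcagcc
A match is a run of letters and no measured site, and the same holds for the windows of the cyclin genes below.

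Among the D cyclins, *Ccnd3* (chr17:47642000-47736632, plus strand) was the most abundant in ESCs and fell in EBs. Control ESCs had 128, 219, 216 and 244 TPM and control EBs had 53.0, 83.4, 80.5, 96.2 and 97.3 TPM, with no overlap. The mean fell from 202 ± 50.6 TPM (SD, n = 4) to 82.1 ± 17.9 TPM (SD, n = 5), a log2 fold change of -1.29 (SE 0.28, adjusted *p* = 0.00239). Same-numbered libraries fell by 1.27 to 1.42 on the log2 scale, a narrower range than that of any other gene of the 7. In mutants *Ccnd3* was at 203, 342, 316, 324 and 307 TPM in ESCs and at 72.4, 118, 102, 207 and 189 TPM in EBs. Only the EB value of replicate 4 passed the lowest ESC value, that of replicate 1 (log2 fold change -1.20, SE 0.27, adjusted *p* = 0.00343). *Ccnd3* has 2 starts in RefSeq, at chr17:47504801-47505050 and chr17:47593217-47593466 (plus strand, GRCm38.p6), and neither window held a match to the words above.
Ccnd3, first start: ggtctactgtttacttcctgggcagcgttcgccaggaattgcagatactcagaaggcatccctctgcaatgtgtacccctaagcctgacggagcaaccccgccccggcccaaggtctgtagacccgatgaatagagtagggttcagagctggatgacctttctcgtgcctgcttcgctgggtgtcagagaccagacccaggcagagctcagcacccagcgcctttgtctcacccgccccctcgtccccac
Ccnd3, second start: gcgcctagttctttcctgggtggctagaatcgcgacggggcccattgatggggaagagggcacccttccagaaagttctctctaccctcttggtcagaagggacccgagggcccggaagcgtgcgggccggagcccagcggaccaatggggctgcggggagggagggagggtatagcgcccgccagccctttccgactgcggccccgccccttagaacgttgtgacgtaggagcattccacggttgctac
The windows lie before the starts, and gene TPM does not separate transcripts from the 2 starts.

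*Ccnd1* (chr7:152115836-152125774, minus strand), the D cyclin best known as a target of mitogen signals, was at 49.1, 61.3, 66.1 and 70.7 TPM in control ESCs and at 72.4, 135, 130, 72.6 and 71.3 TPM in control EBs. The groups did not overlap, yet control ESC replicate 4 was within 1 TPM of the lowest EB value. The log2 fold change was 0.59 (SE 0.24, adjusted *p* = 0.087), called with the block (0.64, adjusted *p* = 0.00217). Mutant ESCs spanned 38.7 to 63.4 TPM and mutant EBs 55.6 to 101 TPM (log2 fold change 0.38, adjusted *p* = 0.301, blocked 0.04).

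*Ccnd2* (chr6:127075797-127101066, minus strand) was the rarest D cyclin. It rose from 4.49, 3.6, 3.94 and 8.90 TPM in control ESCs to 6.04, 13.4, 14.5, 14.3 and 13.6 TPM in control EBs. Only EB replicate 1 lay below the highest ESC value (log2 fold change 1.26, SE 0.32, adjusted *p* = 0.00709). Between mutant ESCs (4.46 to 7.49 TPM) and mutant EBs (6.13 to 14.6 TPM) the log2 fold change was 0.81 (SE 0.30, adjusted *p* = 0.0732, blocked 0.01).

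The share of *Ccnd3* in the summed TPM of the D cyclins was 70.5% to 77.1% in control ESCs and 82.3% to 83.8% in mutant ESCs. It was 35.8% to 53.4% in control EBs, where *Ccnd1* made up 39.2% to 58.2%, and 49.2% to 75.5% in mutant EBs. The D cyclins together were 1.78 to 2.72 times as abundant as the E cyclins in control ESCs and 0.644 to 0.897 times in control EBs.

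*Ccne1* (chr7:38883003-38892553, minus strand) made up 91.6% to 98.7% of the E cyclin TPM in every library of this line. Control ESCs had 96.6, 101, 97.5 and 114 TPM and control EBs had 199, 256, 276, 200 and 200 TPM. The groups were far apart relative to their spread, with means of 102 ± 8.10 TPM (SD, n = 4) and 226 ± 37.1 TPM (SD, n = 5) and a log2 fold change of 1.13 (SE 0.12, adjusted *p* = 2.86e-06). Mutant ESCs had 141, 145, 163, 161 and 166 TPM and mutant EBs 248, 270, 292, 235 and 228 TPM, again without overlap (log2 fold change 0.71, SE 0.12, adjusted *p* = 0.000248). The window before its start, chr7:38107491-38107740 (minus strand, GRCm38.p6), held no match to the words above, and its GC content was 76.0%.
Ccne1: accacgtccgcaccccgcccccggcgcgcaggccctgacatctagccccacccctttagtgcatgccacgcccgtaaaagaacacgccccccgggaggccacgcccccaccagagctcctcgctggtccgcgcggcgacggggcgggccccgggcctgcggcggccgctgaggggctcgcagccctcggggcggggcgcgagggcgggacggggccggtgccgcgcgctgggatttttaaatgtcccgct
The other E cyclin, *Ccne2* (chr4:11118498-11131926, plus strand), stayed between 3.24 and 10.6 TPM in all 19 libraries and was called in no comparison of this line (smallest adjusted *p* = 0.376, blocked 0.156). Genes on the opposite strand overlap *Ccne2* (*Ints8*), *Ccnd1* (*Oraov1*), *Ccnd2* (*9330179D12Rik*) and *Ccnd3* (*Bysl*), and reads from the shared stretches cannot be told apart, since the counting is not stated to use strand.

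Loss of PCGF1 in ESCs was followed next. *Ccne1* was higher in mutant than in control ESCs, and *Mycn* lower and *Myc* and *Ccnd3* higher once libraries were compared within their replicate number. Without the block, 1 of the 7 genes was called, beside 0.641% of all genes tested. With the block 4 of the 7 were called, beside 5.31% of all genes.

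**Figure D2:**
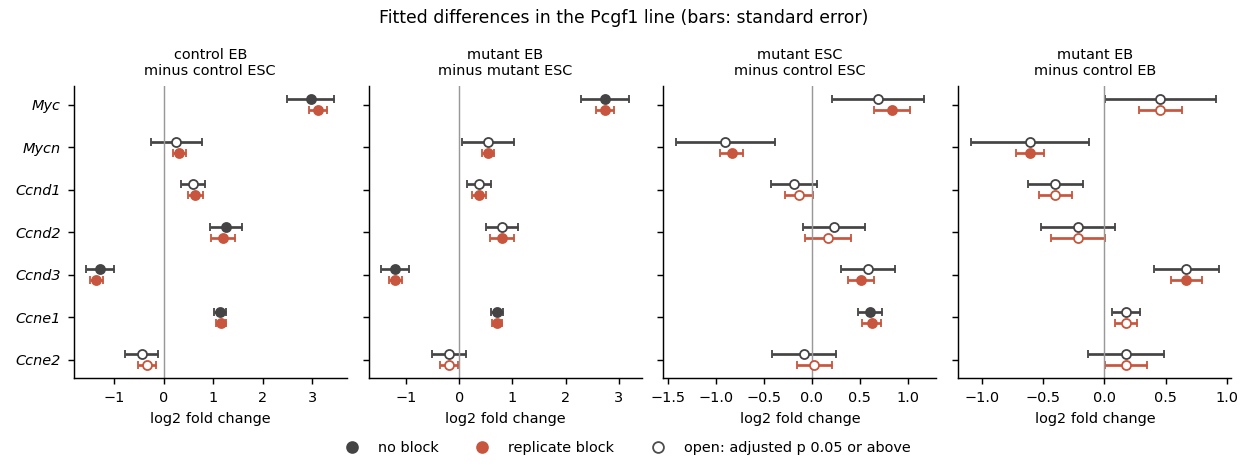
Fitted log2 fold change (horizontal axis) of the 7 genes in 4 comparisons of the *Pcgf1* line, with bars for the SE, grey without and red with the replicate block, and filled symbols for an adjusted *p* below 0.05. *Myc*, *Ccne1* and *Ccnd3* are filled in both stage comparisons, and among the mutant comparisons only *Ccne1* in ESCs is filled in grey.

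*Ccne1* did not overlap between mutant and control ESCs, beside 4.66% of all genes. It was 1.52 times as high in the mean of the mutants (log2 fold change 0.60, SE 0.12, adjusted *p* = 0.0319, against 0.00258 with the block). The difference was 0.55, 0.63 and 0.52 on the log2 scale in the 3 library series. The call without the block was lost, at an adjusted *p* of up to 0.122, without control ESC replicate 1, 2 or 3 or mutant ESC replicate 2, 3, 4 or 5. With the block it held without any one library.

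*Mycn* was lower in the mutant library in all 4 same-numbered ESC pairs, by 0.61 to 1.06 on the log2 scale. Control ESC replicate 1, at 73.1 TPM, was still below mutant replicate 2, at 161 TPM, so that the groups overlapped. The log2 fold change was -0.90 without the block (SE 0.51, adjusted *p* = 0.700) and -0.84 with it (SE 0.12, adjusted *p* = 0.00187). *Myc* was higher in all 4 pairs (log2 fold change 0.69, adjusted *p* = 0.809, blocked 0.84 and 0.0183). The block call of *Myc* was lost without control ESC replicate 1, 2 or 3 or mutant ESC replicate 2, at an adjusted *p* of up to 0.0905. *Ccnd3* was higher in all 4 pairs, by 0.41 to 0.66 on the log2 scale (log2 fold change 0.58, adjusted *p* = 0.589, blocked 0.51 and 0.0421). Its block call held only without mutant ESC replicate 4 or 5, and reached an adjusted *p* of 0.119 otherwise. *Ccnd1*, *Ccnd2* and *Ccne2* were not called either way.

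In EBs, no gene of the 7 was called between mutants and controls by limma without the block (1 had an unadjusted *p* below 0.05), beside 1.95% of all genes tested. With the block 2 were called, beside 10.4% of all genes. *Mycn* was lower in the mutant library of all 5 same-numbered pairs (log2 fold change -0.61, SE 0.11 with the block, adjusted *p* = 0.00350, and 0.737 without the block). *Ccnd3* was higher in all 5 pairs, by 0.34 to 1.10 on the log2 scale (log2 fold change 0.67, SE 0.13 with the block, adjusted *p* = 0.00339, and 0.278 without the block). Within the library series the *Mycn* difference was -0.37, -0.35 and -0.99 and the *Ccnd3* difference 0.45, 0.42 and 1.03, both widest in replicates 4 and 5. These calls held without any one library. *Ccnd1* was lower in all 5 pairs and not called (adjusted *p* = 0.560, blocked 0.0733). *Myc* and *Ccne1* overlapped between control and mutant EBs and were not called either way.

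The effect of the deletion was not shown to differ between EBs and ESCs for any of the 7 genes. In the test of that difference by limma none was called with or without the block (1 had an unadjusted *p* below 0.05 in each), beside 0.00486% of all genes without and 1.62% with it. The smallest adjusted *p* was that of *Ccne1* (0.742, and 0.114 with the block).

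In the Ring1 point mutant line, *Ccnd3* fell again upon differentiation of control cells, *Mycn* and *Ccnd2* rose, and *Myc* and *Ccne1* were not called. Here 3 of the 7 genes were called, 2 higher and 1 lower, beside 4.73% of the 20279 genes tested (2.73% higher and 2% lower). In mutant cells none was called between the stages by limma (1 had an unadjusted *p* below 0.05), beside 0.133% of all genes. With 2 libraries a group these calls are fragile, and none was made when only the groups compared were fitted. The *Mycn* and *Ccnd2* calls were lost without any one of the 4 libraries and the *Ccnd3* call without control EB replicate 1 (adjusted *p* = 0.0517). The feeder sum was 53.7 to 60.8 TPM in ESC controls, 37.9 to 41.7 TPM in EB controls, 103 to 133 TPM in ESC mutants and 91.7 to 95.0 TPM in EB mutants. They were higher in mutants, and their part in the differences was not tested. Mutant EBs (replicates 1 and 2) held 125 and 145 TPM of 4 formative epiblast markers in sum, against 657 and 425 TPM in the controls. Of these markers 3 were called lower in mutant EBs, and 3 of 10 naive pluripotency markers higher, beside 4.53% of all genes called. Between control stages all 4 formative markers rose and 6 naive markers fell, between mutant stages 1 and none. The part of this marker difference in the levels of the 7 genes was not tested.

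**Figure D3:**
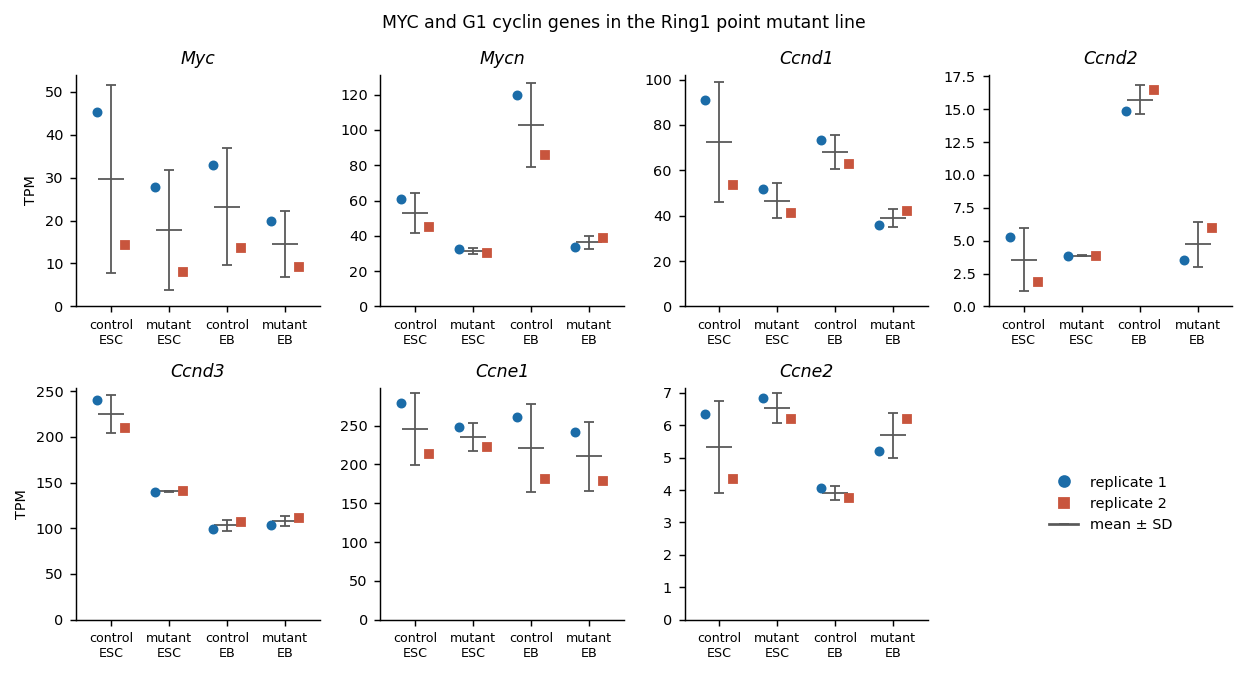
TPM of the 7 genes in the 8 libraries of the Ring1 point mutant line, by group (horizontal axis), with a symbol for each replicate and grey bars for the mean ± SD. *Ccnd3* is highest in both control ESC libraries, *Mycn* and *Ccnd2* are highest in both control EB libraries, and *Myc* differs more between the replicates than between the groups.

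*Mycn* was at 60.8 and 44.9 TPM in control ESCs and 120 and 86.0 TPM in control EBs (log2 fold change 0.96, SE 0.21, adjusted *p* = 0.0494). Mutant ESCs had 32.5 and 30.2 TPM and mutant EBs 33.7 and 38.8 TPM. In EBs both mutant libraries lay below both controls and the fall was called (log2 fold change -1.49, SE 0.21, adjusted *p* = 0.0157). Both mutant ESC libraries lay below both controls as well, which was not called (adjusted *p* = 0.124). With 2 libraries a group such separation was common. Between mutant and control ESCs 45.4% of all genes did not overlap (12.9% lower in mutants). Between mutant and control EBs 43.7% did not overlap (13.6% lower). These shares stand beside every separation of mutants from controls in this line. *Myc* was at 45.2 and 14.3 TPM in control ESCs, 32.9 and 13.6 TPM in control EBs, 27.7 and 7.95 TPM in mutant ESCs and 20 and 9.06 TPM in mutant EBs. Replicate 1 was the higher in each group, all 4 groups overlapped, and no comparison of *Myc* was called (smallest adjusted *p* = 0.696, and 0.0746 with the replicate block). At either stage the mutant library was below the control library of the same number. The level in control ESCs was above that of every control ESC library of the *Pcgf1* line, a comparison between lines that was not tested.

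*Ccnd3* fell from 240 and 210 TPM in control ESCs to 99.0 and 107 TPM in control EBs (log2 fold change -1.12, SE 0.12, adjusted *p* = 0.00392). Mutant ESCs, at 140 and 141 TPM, were below both control ESC libraries (log2 fold change -0.68, SE 0.12, adjusted *p* = 0.0329), and mutant EBs had 104 and 111 TPM. *Ccnd3* was 1 of 7 genes called between mutant and control ESCs, beside 2.54% of all genes, and *Mycn* 1 of 7 between mutant and control EBs, beside 4.53%. Both calls were lost without any one of the 4 libraries compared. In *Pcgf1* mutant ESCs *Ccnd3* had the opposite sign, and the difference between the lines was not tested. *Ccnd2* rose from 5.25 and 1.87 TPM to 14.9 and 16.5 TPM in control EBs (log2 fold change 2.28, SE 0.48, adjusted *p* = 0.0426). Mutant ESCs had 3.87 and 3.84 TPM. Mutant EBs had 3.50 and 5.95 TPM, below both control EB libraries without being called (adjusted *p* = 0.0880).

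*Ccnd1* was at 53.7 and 91.2 TPM in control ESCs and 62.7 and 73.3 TPM in control EBs, and spanned 36.0 to 51.9 TPM in mutants of both stages, below every control library and without a call. *Ccne1* was at 213 and 279 TPM in control ESCs and 181 and 261 TPM in control EBs. Its mutant values of 179 to 248 TPM lay within the span of the controls or just below it. *Ccne2* stayed between 3.75 and 6.85 TPM. For none of the 7 genes was the mutant effect called as different between the stages by limma (3 had an unadjusted *p* below 0.05), beside 0.00986% of all genes.

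The wider pathway was described by lists of known genes, each given by its count and its median log2 fold change. Between control EBs and control ESCs of the *Pcgf1* line these stand beside 11.5% of all genes tested called higher, 13.4% called lower and a median of -0.0045, and with the block beside 43.9% called either way and a median of -0.0339. Of 22 ribosome biogenesis and growth genes known as MYC targets 9 rose, none fell and 13 did not pass the test, with a median of 0.40. With the block 19 of the 22 rose (median 0.43). The strongest were *Odc1*, which makes polyamines (410.5 ± 98.4 TPM in control ESCs, SD, n = 4, and 1068 ± 108 TPM in control EBs, SD, n = 5), *Srm*, the next enzyme of that route (log2 fold change 1.21), and the ribosome assembly factors *Wdr12* (1.03) and *Bop1* (0.92). In mutant cells 5 of these growth genes rose and 1 fell, beside 18.3% of all genes called (12 and 2 with the block, beside 36.8%). In the Ring1 point mutant line none of the 22 was called by limma between control stages (1 had an unadjusted *p* below 0.05), beside 4.73% of all genes, and their median was -0.15 against 0 over all genes. Of 12 MYC partners and antagonists 2 rose in *Pcgf1* control EBs and none fell, with a median of 0.0023 (3 rose and 3 fell with the block). *Mxd4*, an antagonist that competes for MAX, rose between the stages of *Pcgf1* mutants, from 2.32 ± 0.842 to 6.70 ± 2.09 TPM (SD, n = 5 each), and between those of point mutant line controls (log2 fold change 2.28).

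**Figure D4:**
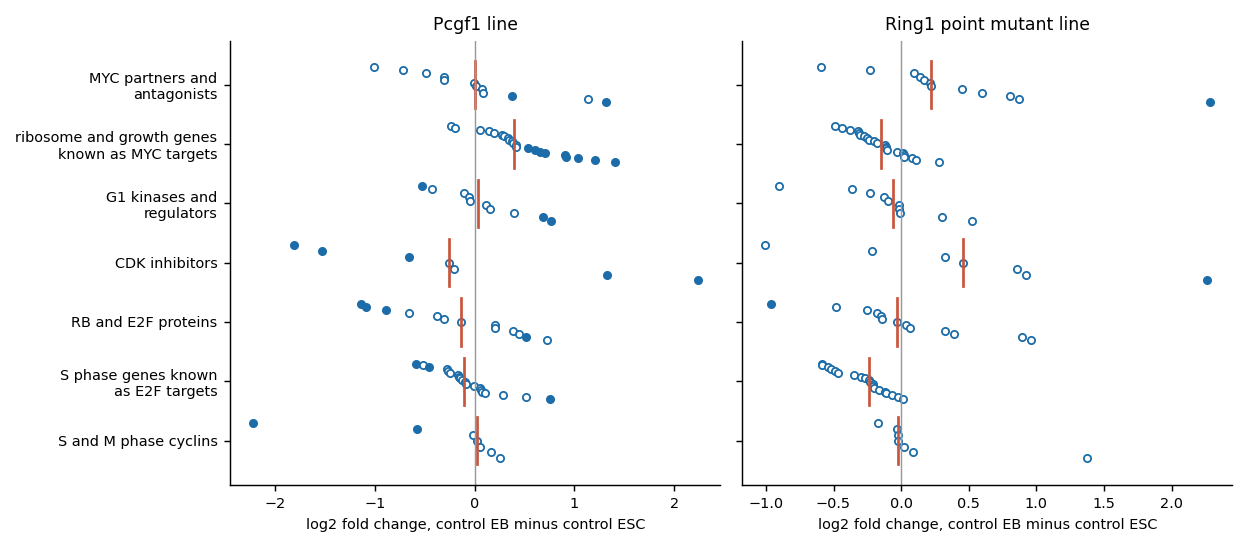
Log2 fold change between control EBs and control ESCs (horizontal axis) of every tested gene of 7 lists in the *Pcgf1* line and the Ring1 point mutant line, each on its own scale, filled where the adjusted *p* was below 0.05 without the block, with a red line at the list's median. The growth genes known as MYC targets hold 9 filled points to the right of 0 in the *Pcgf1* line and none in the other line.

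Of 10 G1 kinases and their regulators, 2 rose and 1 fell in *Pcgf1* control EBs (3 and 2 with the block). Their median was 0.034 against -0.0045 over all genes. *Cdk4*, the partner of D cyclins, rose from 409 ± 98.0 to 679 ± 42.2 TPM, and *Cdk2*, the partner of E cyclins, fell from 124 ± 18.7 to 86.1 ± 12.0 TPM (SD, n = 4 and 5). Of 7 CDK inhibitors 2 rose and 3 fell (median -0.26, and 2 and 4 with the block). *Cdkn1c* (p57) rose by a log2 fold change of 2.24, *Cdkn2b* (p15) by 1.33, *Cdkn1a* (p21) fell by 1.53 and *Cdkn2c* (p18) by 1.80. *Cdkn2a*, the locus of p16 and ARF, was higher in *Pcgf1* mutant than control EBs (61.7 ± 13.3 against 20.2 ± 7.42 TPM, SD, n = 5 each, log2 fold change 1.65, adjusted *p* = 0.00538). In the Ring1 point mutant line *Cdkn1c* was higher in mutants at both stages (log2 fold change 2.49 in ESCs and 1.45 in EBs), and *Cdkn2d* (p19) in EBs (0.87).

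Of 13 RB and E2F proteins 1 rose and 3 fell in *Pcgf1* control EBs (median -0.13, and 5 and 5 with the block), among them the RB relatives *Rbl1* (log2 fold change -1.09) and *Rbl2* (-1.13). Of 20 S phase genes known as E2F targets 1 rose and 2 fell (3 and 6 with the block), with a median of -0.11, and the 2 were *Cdc45*, a replication fork factor, and *Rrm2*, which makes deoxyribonucleotides. Of 7 S and M phase cyclins *Ccna1* and *Ccnb2* fell, and none rose (median 0.019). With the block 1 rose and 2 fell. Between mutant and control ESCs of this line none of the 91 genes of these 7 pathway lists was called by limma (4 had an unadjusted *p* below 0.05), beside 0.641% of all genes, and with the block 2 were higher and 3 lower, beside 5.31% of all genes.

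Genes that respond to pathways on which LIF and the 3i inhibitors act were listed beside. For the ERK genes, what was withdrawn at EB formation were inhibitors (of FGFR and MEK1/2) and not a signal. In *Pcgf1* control EBs 4 of 5 LIF-STAT3 response genes fell, and 5 with the block (median log2 fold change -3.94 against -0.0045 over all genes). Among them *Socs3* fell from 144 ± 44.1 to 4.51 ± 1.36 TPM (SD, n = 4 and 5). Of 6 WNT response genes 3 fell and 2 rose (median -1.21), with *Cdx1* (log2 fold change -5.56), *Sp5* (-4.75) and *Axin2* (-2.20) lower and *Lef1* (2.51) higher. Of 7 ERK response genes 1 rose and 2 fell (median 0.44), the latter *Egr1* (-5.87) and *Spry2* (-1.01). With the block 4 of the ERK response genes rose and 2 fell. All 4 formative epiblast markers rose (median 5.73) and 8 of 10 naive pluripotency markers fell (median -2.43, and 9 with the block), so that the labelled stages match their markers in this line. In mutant EBs compared with control EBs of this line, 2 of the 10 naive markers were higher, beside 1.95% of all genes called (6 with the block, beside 10.4%).

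The genes most like each member were taken over the 27 libraries of both lines, on log2 levels with each line's own mean removed, among 12851 genes that averaged 1 TPM or more in each of them. These libraries share stages and library series, so r is given as a description. *Myc* was most like *Gemin4* (r = 0.95), *Soga3* (0.95) and *Glul* (0.94), and *Ccne1* like *Sssca1* (0.95), *Wdr73* (0.95) and *Hpdl* (0.94). *Ccnd3* was most like *Hap1* (0.96), *Tbc1d13* (0.94) and *Gm53* (0.94). The nearest genes were *Asxl1* (0.93), *Fnip2* (0.92) and *Rara* (0.91) for *Mycn*, *Smyd5* (0.93), *Wrb* (0.93) and *Tubb5* (0.92) for *Ccnd1*, *Ppp1r1a* (0.83), *Slc35f2* (0.81) and *Slc23a1* (0.80) for *Ccnd2*, and *Ctnnd1* (0.94), *Secisbp2l* (0.93) and *Erlin2* (0.92) for *Ccne2*. Among the members themselves the highest r was that of *Myc* with *Ccne1* (0.90), and the lowest that of *Myc* with *Ccnd3* (-0.50).

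The lines for *Pcgf6*, *Pcgf3/5*, *Pcgf2/4* and *Ring1A/B* (8 libraries each, 2 per labelled group) could not be compared in the same way. All 8 *Ring1A/B* libraries, controls included, lack *Ring1A*. For 21 of their 32 libraries, label and file name give different conditions. The stage markers went with the name and against the label where the 2 gave different stages. In the *Ring1A/B* libraries labelled control EB, *Klf4*, a naive pluripotency factor, was at 665 to 709 TPM and *Fgf5*, a formative epiblast marker, at 0.540 to 0.791 TPM, beside 754 to 766 TPM and 0.465 to 0.816 TPM in the libraries labelled control ESC. In those labelled mutant ESC *Klf4* was at 7.38 to 9.90 TPM and *Fgf5* at a mean of 27.7 TPM (n = 2). In each of the other three lines both labelled stages spanned high and low *Klf4*, while *Klf4* was at 120 to 200 TPM in libraries named ESC and at 3.25 to 16.1 TPM in those named EB. The names were used for no test, and every group is that of the label unless a name is given. In the *Ring1A/B* line the libraries labelled mutant ESC are control EB by name, and those labelled control EB are mutant ESC. The counts by label that follow, calls and missing calls alike, therefore stand for the labels only. They compare neither stages nor mutants with controls. Between the *Ring1A/B* libraries labelled control EB and control ESC 7 of the 7 genes were called (43.2% of all genes), 6 between those labelled mutant and control ESC (48.8%) and 5 between those labelled mutant and control EB (33.3%). None was called by limma in the *Pcgf2/4*, *Pcgf3/5* and *Pcgf6* lines (at most 3 had an unadjusted *p* below 0.05 in a comparison), beside 0.0601%, 0.0401% and 0.0301% of all genes in the same 3 comparisons of the *Pcgf3/5* line and 0% in the other two lines.

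**Figure D5:**
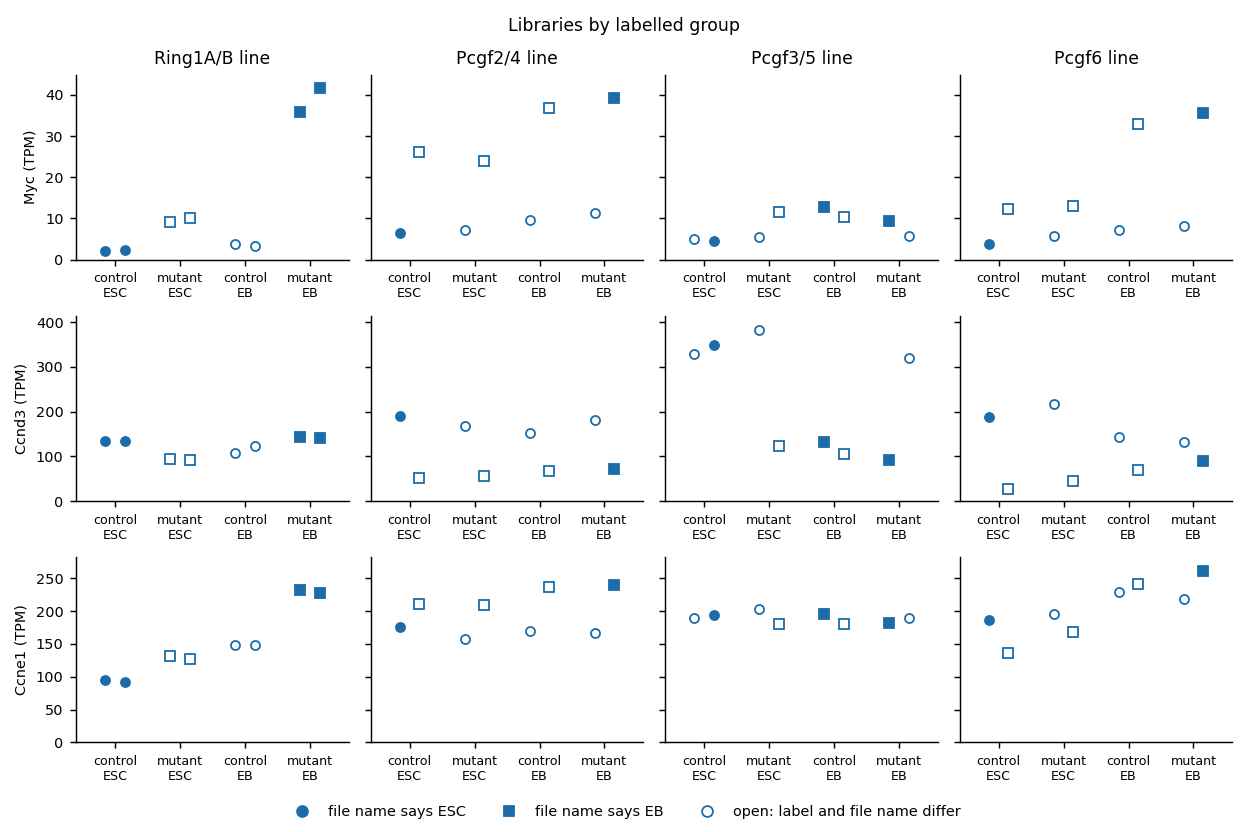
TPM of *Myc*, *Ccnd3* and *Ccne1* in the 32 libraries of 4 further lines, by labelled group (horizontal axis), with circles and squares for a file name that says ESC or EB and open symbols where label and file name differ. In the *Pcgf2/4* and *Pcgf6* lines the 2 libraries of a labelled group differ for *Myc* and *Ccnd3*. For *Ccnd3* they differ least in the mutant EBs of the *Pcgf6* line (131 and 88.4 TPM).

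In the 11 libraries whose label and file name are the same, *Myc* was at 2.13 and 2.36 TPM in control ESCs and 35.9 and 41.6 TPM in mutant EBs of the *Ring1A/B* line. It was at 6.55 TPM in a control ESC and 39.2 TPM in a mutant EB library of the *Pcgf2/4* line, and at 3.70 and 35.7 TPM in those of the *Pcgf6* line. In the *Pcgf3/5* line it was at 4.49 TPM in a control ESC, 12.7 TPM in a control EB and 9.33 TPM in a mutant EB library. *Myc* was thus lower in each of these control ESC libraries than in the EB libraries of its line, without a test. In the *Ring1A/B*, *Pcgf2/4* and *Pcgf6* lines all of these EB libraries are mutants. Stage and mutation therefore cannot be told apart there, for *Myc* and for the genes that follow.

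*Ccnd3* in the same libraries was at 134 and 134 TPM in control ESCs and 144 and 141 TPM in mutant EBs of the *Ring1A/B* line. It was at 190 and 72.1 TPM in the *Pcgf2/4* line and 188 and 88.4 TPM in the *Pcgf6* line (control ESC, then mutant EB). In the *Pcgf3/5* line it was at 349 TPM (control ESC), 131 TPM (control EB) and 90.6 TPM (mutant EB). The *Ring1A/B* line was the only 1 of the 4 in which *Ccnd3* was not lower in these EB than in these ESC libraries. Its EB libraries here are mutants, and its libraries called control EB by name had *Ccnd3* at 93.5 and 91.3 TPM. *Ccne1* was at 95.1 and 91.9 TPM in control ESCs and 232 and 227 TPM in mutant EBs of the *Ring1A/B* line, at 176 and 240 TPM in the *Pcgf2/4* line and at 186 and 261 TPM in the *Pcgf6* line (control ESC, then mutant EB). In the *Pcgf3/5* line *Ccne1* was at 194 TPM in the control ESC library, 196 TPM in the control EB and 182 TPM in the mutant EB library, on either side of the ESC value. *Ccnd2* was at 3.59 and 4.78 TPM in control ESCs and 10.3 and 11.4 TPM in mutant EBs of the *Ring1A/B* line, and at most 13.5 TPM in the libraries of the other lines whose label and name are the same.

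Among the 21 libraries that differ, the libraries labelled control EB in the *Ring1A/B* line, which the names call mutant ESC, had *Myc* at 3.74 and 3.42 TPM and *Mycn* at 45.3 and 50.3 TPM. Those labelled mutant ESC, called control EB by name, had *Myc* at 9.04 and 10 TPM and *Ccnd2* at 24.7 and 24.4 TPM. In the *Pcgf2/4* line the library labelled control ESC replicate 2 (control EB by name) had *Ccnd3* at 50.7 TPM and the one labelled control EB replicate 1 (mutant ESC by name) had it at 152 TPM. In the *Pcgf6* line the same labels held 27.5 TPM and 144 TPM. In the *Pcgf3/5* line the libraries labelled mutant ESC had *Ccnd3* at 383 TPM (control ESC by name) and 122 TPM (control EB by name). Over all 32 libraries *Myc* ranged from 2.13 to 41.6 TPM, *Mycn* from 45.3 to 305 TPM, *Ccnd1* from 36.8 to 142 TPM, *Ccnd2* from 0.858 to 24.7 TPM, *Ccnd3* from 27.5 to 383 TPM, *Ccne1* from 91.9 to 261 TPM and *Ccne2* from 1.67 to 10.2 TPM.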

How the data were processed

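The authors aligned poly(A) RNA reads (75 bp or 50 bp, single-end) with STAR (version 2.5.2b) to mm9 and deposited TPM per gene symbol for 59 libraries. The step to TPM is not given in the sources used here. Every library sums to a fixed total, so depth is unknown and no counting interval is given. Libraries were grouped by their labels. A *Pcgf1* mutant EB library is replicate 4 by title and 5 by characteristics, and the title was used.

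For each line, log2(TPM + 0.1) was fitted over its 4 groups in R (version 4.3.3) with limma (version 3.58.1, variance trend), for genes above 0 TPM in at least 1 library, with Benjamini-Hochberg adjustment over all genes. The fit without the block was tried on simulated data for control EBs against control ESCs of the *Pcgf1* and Ring1 point mutant lines. Noise there was independent between libraries, so neither the block nor shared deviations of same-numbered libraries were covered. In the *Pcgf1* line all 27 same-numbered pairs had correlated deviations from their group means (r = 0.32 to 0.65 over 13400 genes), on which the pairing rests. The numbers lie within the 3 library series, and differently numbered libraries of a series were not compared. These correlations therefore cannot tell pairing by number from a difference between series. From each list at most 4 called genes per comparison, with a mean of at least 1 TPM and no overlap, were named by size of change. The members and lists were chosen with earlier results of these data known. The alternatives were the replicate block, the library series as a term, only the compared groups, each replicate left out, quantile normalization or median-of-ratios scaling, a pseudocount of 1, and a minimum mean TPM of 1. Plots were made with matplotlib (version 3.10.9) in Python (version 3.11.15), and tables with pandas (version 2.3.3).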

Additional observations from a re-analysis of the deposited data

Results flagged for a closer look

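In 3 of the 28 sets of libraries tested (7 genes in 4 groups of the *Pcgf1* line), 1 library stood apart from the others by Dixon's criterion, which chance alone passes in about 1 of 20 sets. *Ccnd2* was at 6.04 TPM in control EB replicate 1, against 13.4 to 14.5 TPM in the other control EBs. *Ccnd2* was at 8.90 TPM in control ESC replicate 4, against 3.6 to 4.49 TPM in the other control ESCs. *Ccnd3* was at 203 TPM in mutant ESC replicate 1, against 307 to 342 TPM in the other mutant ESCs. Each of these 3 libraries is the only one of its group in its library series. No reason for these values was tested.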

How the results depend on the processing

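In the *Pcgf1* line the 3 genes called in both stage comparisons (*Myc*, *Ccne1* and *Ccnd3*) kept sign and call without any one library. Counts of the 7 genes called moved as follows. With the replicate block, control EBs against control ESCs went from 4 to 6 (*Mycn* and *Ccnd1* added), mutant EBs against mutant ESCs from 3 to 6, mutant against control ESCs from 1 to 4 and mutant against control EBs from 0 to 2, and the library series as a term gave 6, 4 and 2 for the last 3. Without one replicate, mutant against control ESCs gave 0 to 1. The block with each replicate left out, chosen after seeing the data, gave 5 to 6, 2 to 4 and 2 to 3 for the same 3, and 1 for the difference of effects without control ESC replicate 4. The block called none of the 7 in the difference of effects. *Mycn* between control stages changed sign without control ESC replicate 1 (log2 fold change -0.084, range -0.084 to 0.54). Over all genes, the block raised the calls from 5138 to 9050 (control stages), 3770 to 7573 (mutant stages), 132 to 1094 (ESCs), 402 to 2143 (EBs) and 1 to 333 (difference of effects), and the series term gave 9255, 7886, 1347, 2470 and 487. A pseudocount of 1, median-of-ratios scaling and quantile normalization gave 233, 208 and 207 in ESCs and 8, 12 and 27 for the difference of effects, a mean TPM minimum 3 for the latter, and only the compared groups 86 in EBs.

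In the Ring1 point mutant line, the counts of 3 (control stages), 1 (ESCs) and 1 (EBs) fell to 0 with only the groups compared and to 0 to 1, 0 and 0 without one replicate, where the lone library is assumed to vary like the others. Quantile normalization gave 2 in EBs. Over all genes only the compared groups gave 0, 206 and 0 calls against 960, 515 and 918, and quantile normalization 207 in ESCs. Between mutant stages 27 calls became 5 (pseudocount), 42 (quantile) and 0 (only the groups). Its numbers were not taken as pairs, since each comparison has only 2 of them, whose correlations mirror each other (r = 0.11 to 0.38, all over 0.1). The block gave 2018, 102, 1326 and 2056 calls and the same counts of the 7 genes, with *Myc* in ESCs at an adjusted *p* of 0.0746 against 0.711. In the *Ring1A/B* line the 5 genes called between EBs by label became 2 to 3 without a replicate other than control EB replicate 2. The causes were not tested. Depth is unknown, so counting error at the low levels of *Ccnd2* and *Ccne2* could not be given.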
